A study of Mus musculus with 30 samples.

Results

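Interferon-stimulated genes were followed across mesenchymal cells of the mouse intestine, in the normal colon, in the colon of mice given dextran sulphate sodium (DSS, a chemical that damages the gut lining and causes colitis) and in the normal small intestine. The genes were chosen by name: 43 gene symbols were looked up in every deposited table of all genes, out of 20093 genes present in at least 1 of 14 tables. They comprise 11 GTPases, 5 transcription factors, 3 sensors of foreign RNA, 3 genes of the ISG15 and ubiquitin-like group and 21 antiviral effectors. Of the 43 genes, 42 had a row in all 14 tables and Mx1 had one in 10.

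All mice were C57BL/6 and carried ColVI-cre with the Rosa mTmG reporter, so every group, normal or treated, shares these alleles. A collagen VI gene promoter drives Cre, and in this reporter a cell in which Cre is or was active, with its descendants, is green (GFP-positive) while other cells stay red (called Tomato in the labels, GFP-negative here). Freshly isolated colon cells, taken from normal mice and from mice with DSS colitis, gave GFP-positive, GFP-negative and unsorted groups. Cells of the normal small intestine gave groups with high GFP, with low GFP and without GFP, and an unsorted group. These 10 groups have 3 libraries each by their labels. Of the unsorted small intestine, replicate 1 is not used here, which leaves 29 libraries and 2 in that group. Ages and sexes are not stated. The labels do not say whether replicates are separate mice, so every p-value measures only the spread between these libraries, which may be technical. Normal and DSS colon libraries carry separate runs of library numbers in their labels, which do not say whether they were prepared or sequenced together. Any difference between these runs cannot be told apart from DSS.

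Interferons are secreted proteins that warn cells of infection. Type I and type III interferons act through a complex that includes STAT2 and IRF9 and binds the interferon-stimulated response element in promoters. Type II interferon, made mainly by T and NK cells, acts through the gamma-activated sequence and induces IRF1. Guanylate-binding proteins (Gbp genes) and immunity-related GTPases (Irgm1, Irgm2, Igtp, Iigp1, Tgtp1, Tgtp2) take part in the defence against microbes inside cells and respond strongly to type II interferon. Ifit, Oas, Mx and Rsad2 proteins block steps of viral replication and are best known as targets of type I and type III interferon, although many genes respond to all of them.

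Values are 3' RNA sequencing read counts that the authors normalised, here called normalised counts. Estimated depth was 1228000 to 4415000 reads per library, and 1 read was worth 0.572 to 1.93 normalised counts. Normal colon, DSS colon and small intestine lie on separate scales, and only the DSS comparisons put normal and DSS cells on a common one. Differences were tested with limma on log2(normalised count + 1), with p-values adjusted by the Benjamini-Hochberg method over all genes of a comparison and a threshold of 0.05. The fold changes are on this log2 scale, which understates changes of genes with low counts. The tissue label was checked by markers: in sorted colon libraries, all 8 mesenchymal markers (collagens, Vim, Lum and others) were present and summed to 32397 to 95875 normalised counts. Other lists summed to 24 to 263 (leukocytes in general), 110 to 637 (myeloid cells), 36 to 666 (epithelium) and 76 to 248 (endothelium), and B and plasma cells to 26 to 3652, highest in a normal GFP-negative library. GFP and Tomato themselves were not analysed here. In such bulk samples, more cells of a type and more RNA per cell cannot be told apart.

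The genes lie on 15 chromosomes, with 10 of them on chromosome 11, and families sit in clusters (mm10 coordinates of the authors' tables). Gbp2, Gbp3 and Gbp7 lie at chr3:142530342-142638008, and Gbp4 and Gbp6 at chr5:105115767-105293698. Irgm1, Tgtp1 and Tgtp2 lie at chr11:48861968-49064206, with Igtp and Irgm2 further along the same chromosome at chr11:58199556-58222782. Ifit1, Ifit2 and Ifit3 share chr19:34550694-34650009, and Ifitm1, Ifitm2 and Ifitm3 share chr7:140954837-141010770. Short reads separate some of these poorly: Tgtp1 and Tgtp2 are near-identical copies, Igtp and Irgm2 have overlapping gene models on the same strand, and Gbp4 overlaps Gbp8 and Gbp9. In all, 9 of the 43 genes overlap another gene on the same strand and 9 on the opposite strand, and the sources used here do not say whether strand was used in counting. Values of these genes are uncertain to that extent.

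The promoters of genes whose values are described below show which of the binding sequences lie near their starts. Each line gives 250 bases up to the annotated start, 5′ to 3′ on the gene's strand, from RefSeq on GRCm38.p6, with matches on either strand to the core of the interferon-stimulated response element (GAAA, any 2 bases, GAAA) or to the gamma-activated sequence (TTC, any 3 bases, GAA) in capitals. Tgtp1 and Igtp had the largest fold change in DSS among GTPases with a promoter in the table, in GFP-positive and GFP-negative cells respectively. Irf1, Ifih1, Ubd and Ifi44 are shown for the other groups by the same rule, and Isg15 was added after its values were seen.
Tgtp1, chr11:48992247-48992496, minus strand: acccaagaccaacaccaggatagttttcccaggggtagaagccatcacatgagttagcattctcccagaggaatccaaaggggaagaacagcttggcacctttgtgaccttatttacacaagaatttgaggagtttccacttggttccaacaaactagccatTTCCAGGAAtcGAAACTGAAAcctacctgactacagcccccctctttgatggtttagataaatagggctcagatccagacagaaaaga
Igtp, chr11:58199306-58199555, plus strand: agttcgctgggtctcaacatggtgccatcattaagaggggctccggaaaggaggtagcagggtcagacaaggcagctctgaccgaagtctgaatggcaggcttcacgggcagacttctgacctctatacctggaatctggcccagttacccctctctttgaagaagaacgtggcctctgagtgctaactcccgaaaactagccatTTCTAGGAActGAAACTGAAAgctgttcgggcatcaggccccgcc
Irf1, chr11:53769764-53770013, plus strand: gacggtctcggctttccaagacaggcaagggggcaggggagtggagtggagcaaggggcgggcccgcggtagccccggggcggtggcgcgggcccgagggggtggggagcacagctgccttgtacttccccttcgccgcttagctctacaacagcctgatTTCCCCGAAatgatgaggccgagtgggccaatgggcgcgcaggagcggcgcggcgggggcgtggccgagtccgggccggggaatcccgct
Isg15, chr4:156200819-156201068, minus strand: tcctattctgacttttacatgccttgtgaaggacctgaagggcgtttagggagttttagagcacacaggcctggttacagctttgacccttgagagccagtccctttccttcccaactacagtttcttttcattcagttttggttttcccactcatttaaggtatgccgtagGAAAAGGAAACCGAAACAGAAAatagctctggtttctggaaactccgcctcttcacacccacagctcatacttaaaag
Ifih1, chr2:62646256-62646505, minus strand: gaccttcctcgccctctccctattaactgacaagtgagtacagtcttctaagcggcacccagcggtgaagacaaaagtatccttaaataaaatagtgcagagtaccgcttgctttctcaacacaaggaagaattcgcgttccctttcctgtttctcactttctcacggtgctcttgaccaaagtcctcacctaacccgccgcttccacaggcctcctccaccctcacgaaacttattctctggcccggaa
Ubd, chr17:37193642-37193891, plus strand: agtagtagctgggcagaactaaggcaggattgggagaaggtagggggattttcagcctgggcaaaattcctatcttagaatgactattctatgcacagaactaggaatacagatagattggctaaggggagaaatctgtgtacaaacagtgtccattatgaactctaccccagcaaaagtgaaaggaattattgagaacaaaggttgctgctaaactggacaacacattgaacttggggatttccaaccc
Ifi44, chr3:151749911-151750160, minus strand: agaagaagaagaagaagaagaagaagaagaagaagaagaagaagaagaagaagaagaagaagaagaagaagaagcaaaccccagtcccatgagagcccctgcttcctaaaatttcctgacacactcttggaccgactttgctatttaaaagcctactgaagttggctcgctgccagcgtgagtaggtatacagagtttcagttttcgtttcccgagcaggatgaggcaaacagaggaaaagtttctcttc

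Tgtp1 carries the gamma-activated sequence 88 to 80 bases before the start and the response element core at 77 to 68 bases before it. Igtp carries the same pair, in the same order, at 45 to 37 and 34 to 25 bases before its start. Irf1 carries the gamma-activated sequence at 90 to 82 bases before the start shown and no response element core. Isg15 carries 3 overlapping copies of the response element core, beginning 78, 72 and 66 bases before the start, and no gamma-activated sequence. Neither motif occurs in the window shown for Ifih1, Ubd or Ifi44.

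Promoters were found for 33 of the 43 genes. The response element core occurred in 16 of the 33 genes (48.5%), against 936 of all 27025 genes with a promoter (3.46%). All 8 GTPases with a promoter held it, as did 6 of 16 antiviral effectors, Stat2 as 1 of 5 transcription factors, 1 of 2 genes of the ISG15 group and 0 of 2 RNA sensors. The shorter gamma-activated sequence occurred in 12 of the 33 genes (36.4%), against 8.13% of all genes: 5 of 8 GTPases, 5 of 16 antiviral effectors, Irf1 and Irf8. Both motifs occurred in 7 of the genes and neither in 12. The arrangement of Tgtp1 and Igtp, with exactly 2 bases between the motifs, was noticed after the sequences were read. It occurred in 5 of the 32851 promoters, those of Tgtp1, Tgtp2, Igtp, Irgm2 and Gm12185, which are related genes or, for Gm12185, overlap Tgtp1. A match is a run of letters, not a measured binding site.

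**Figure D1:**
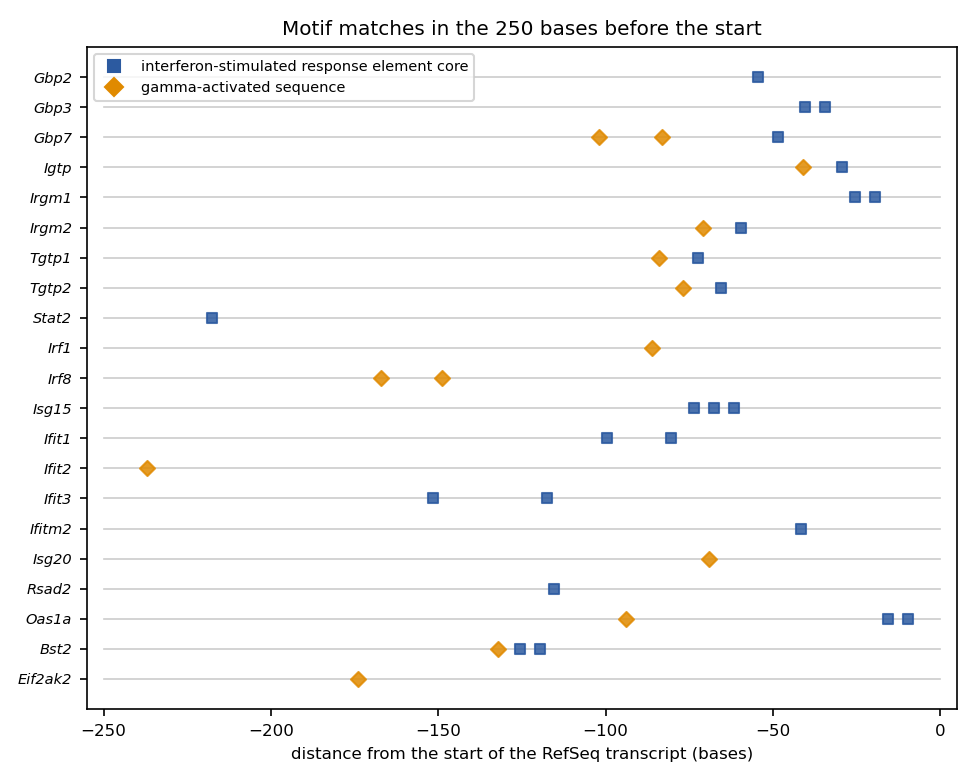
Positions of the response element core and the gamma-activated sequence in the promoters of the members with a match, as distance in bases from the annotated start (horizontal axis), 1 gene per row and ordered by role. Matches in Tgtp1, Tgtp2, Igtp and Irgm2 form a close pair within 88 bases of the start.

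DSS colitis came with higher levels of most GTPases in GFP-positive cells. Against a background of 19.7% of 12976 genes past the threshold (10.2% higher and 9.46% lower), 19 of the 41 tested genes were higher in DSS and 2 were lower. Their median log2 fold change was 0.93, against -0.008 over all genes. GTPases made up 10 of the 19, from 11 tested, whereas 6 of 19 tested antiviral effectors were higher. Whether these shares differ was not tested. Oas1a was too low to test here (8, 5 and 10 normalised counts in DSS and 4, 1 and 6 in normal libraries), and Mx1 has no values in this comparison. With library totals made equal, the median of all genes moved by -0.12 and the split over all genes went from 1328 higher of 2555 to 991 higher of 2576, while 20 of the interferon-stimulated genes were then past the threshold. In the authors' deposited table, 2 of these genes, Ubd and Gbp4, had an FDR under 0.05, against 0.27% of all genes.

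Among GTPases of GFP-positive cells, Gbp4 measured 536, 341 and 518 normalised counts in the DSS libraries and 43, 42 and 25 in the normal ones. The means were 465 ± 108 and 36.7 ± 10.1 with n = 3 each (± SD), and the log2 fold change was 3.64 (SE 0.26, limma adjusted p = 1.57e-06). The lowest DSS library lay far above the highest normal one. Gbp6 measured 1600, 1361 and 1183 against 141, 123 and 179, a log2 fold change of 3.22 (SE 0.21, limma adjusted p = 6.28e-07). Both belong to the guanylate-binding proteins, which coat the vacuoles of microbes and help to activate inflammasomes.

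Tgtp1, a T-cell-specific GTPase by name that interferon induces in many cells, measured 297, 295 and 201 in DSS and 40, 36 and 56 in normal libraries (log2 fold change 2.56, SE 0.25, limma adjusted p = 2.47e-05). Iigp1, a GTPase that disrupts the vacuole of Toxoplasma, measured 3736, 3357 and 2739 against 772, 268 and 929 (2.49, SE 0.43, limma adjusted p = 0.00642). The normal libraries of Iigp1 were uneven, with library 2 the lowest, yet all lay below the DSS libraries. Irgm2 measured 474, 455 and 383 against 81, 149 and 51 and Igtp 659, 538 and 553 against 190, 104 and 190. Their log2 fold changes were 2.34 and 1.90. Irgm1 (2.01), Tgtp2 (1.81), Gbp3 (1.51) and Gbp7 (1.29) were also higher. Gbp2, with 197, 126 and 124 against 90, 57 and 120, was the one tested GTPase not past the threshold (log2 fold change 0.77, limma adjusted p = 0.0779), although it passed without normal library 3 (1.01, limma adjusted p = 0.0271). Summed over the 11 GTPases, the normal libraries held 1696, 1098 and 1969 normalised counts and the DSS libraries 8755, 7556 and 6573.

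Ubd, a ubiquitin-like protein that marks proteins for the proteasome, was higher in every DSS library of GFP-positive cells. It measured 6, 2 and 4 in the normal and 942, 401 and 676 in the DSS libraries (log2 fold change 7.07, SE 0.37, limma adjusted p = 3.02e-07). Isg15, a ubiquitin-like modifier released and attached to proteins after interferon, measured 180, 72 and 119 against 536, 454 and 395 in DSS (1.98, SE 0.29, limma adjusted p = 0.000951). Both genes separated the groups fully. Usp18, the protease that removes ISG15, measured 33, 40 and 75 in normal and 75, 95 and 100 in DSS libraries (0.93, SE 0.30, limma adjusted p = 0.0444), with a tie between the groups. It lost its call in 7 of the alternative analyses, among them those without normal library 1 or 2 or without any single DSS library.

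Among antiviral effectors of GFP-positive cells, Zbp1, a sensor of Z-form nucleic acid that can trigger cell death, measured 69, 51 and 65 in DSS and 21, 12 and 17 in normal libraries (log2 fold change 1.85, limma adjusted p = 0.00141). Bst2, which tethers budding viruses to the cell, measured 580, 514 and 597 against 213, 177 and 194 (1.53, limma adjusted p = 0.000192). No library of either group overlapped the other for these genes. Ifi44 (1.79), Parp14 (1.61), Ifit3 (1.26) and Xaf1 (1.20) were higher as well. Ifi35, a partner of NMI, was lower in DSS, at 231, 179 and 180 against 264, 410 and 338 (-0.76, limma adjusted p = 0.0271). Ifitm2, one of the membrane proteins that hinder viral entry, was lower too (102, 100 and 159 against 150, 213 and 292, -0.84, limma adjusted p = 0.0458), with overlapping groups. Ifi35 lost its call without normal library 2 or without DSS library 2 or 3, and Ifitm2 without normal library 2 or 3 or DSS library 1 or 2. Limma adjusted p-values then ran from 0.0643 to 0.112 for Ifi35 and from 0.0726 to 0.169 for Ifitm2.

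Many classical antiviral genes did not pass in GFP-positive cells. Rsad2 had a log2 fold change of 1.35 (limma adjusted p = 0.119), Eif2ak2 of 0.64, Ifitm1 of 0.61, Ifit1 of 0.60, Isg20 of 0.52 and Ifit2 of 0.34. Rnf213 stood at 0.23, Ifi27 at 0.13, Oasl2 at -0.04, Mx2 at -0.24 and Ifitm3 at -0.25. Over the 21 antiviral effectors, of which 20 have values here, the normal libraries summed to 3649, 4253 and 7200 and the DSS libraries to 5525, 5023 and 5992. These ranges overlap. Ifitm3 alone gave 1703, 1709 and 4340 of the normal and 1903, 1822 and 2166 of the DSS counts. Without it, a choice made after the values were seen, the other 19 effectors summed to 1946, 2544 and 2860 in normal and to 3622, 3201 and 3826 in DSS libraries, with no overlap. The RNA sensors Ifih1 (0.29), Dhx58 (0.21) and Ddx58 (-0.06) did not pass, with 0 of 3 called by limma, 0 at an unadjusted p under 0.05 and 0 by the authors' deposited test.

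**Figure D2:**
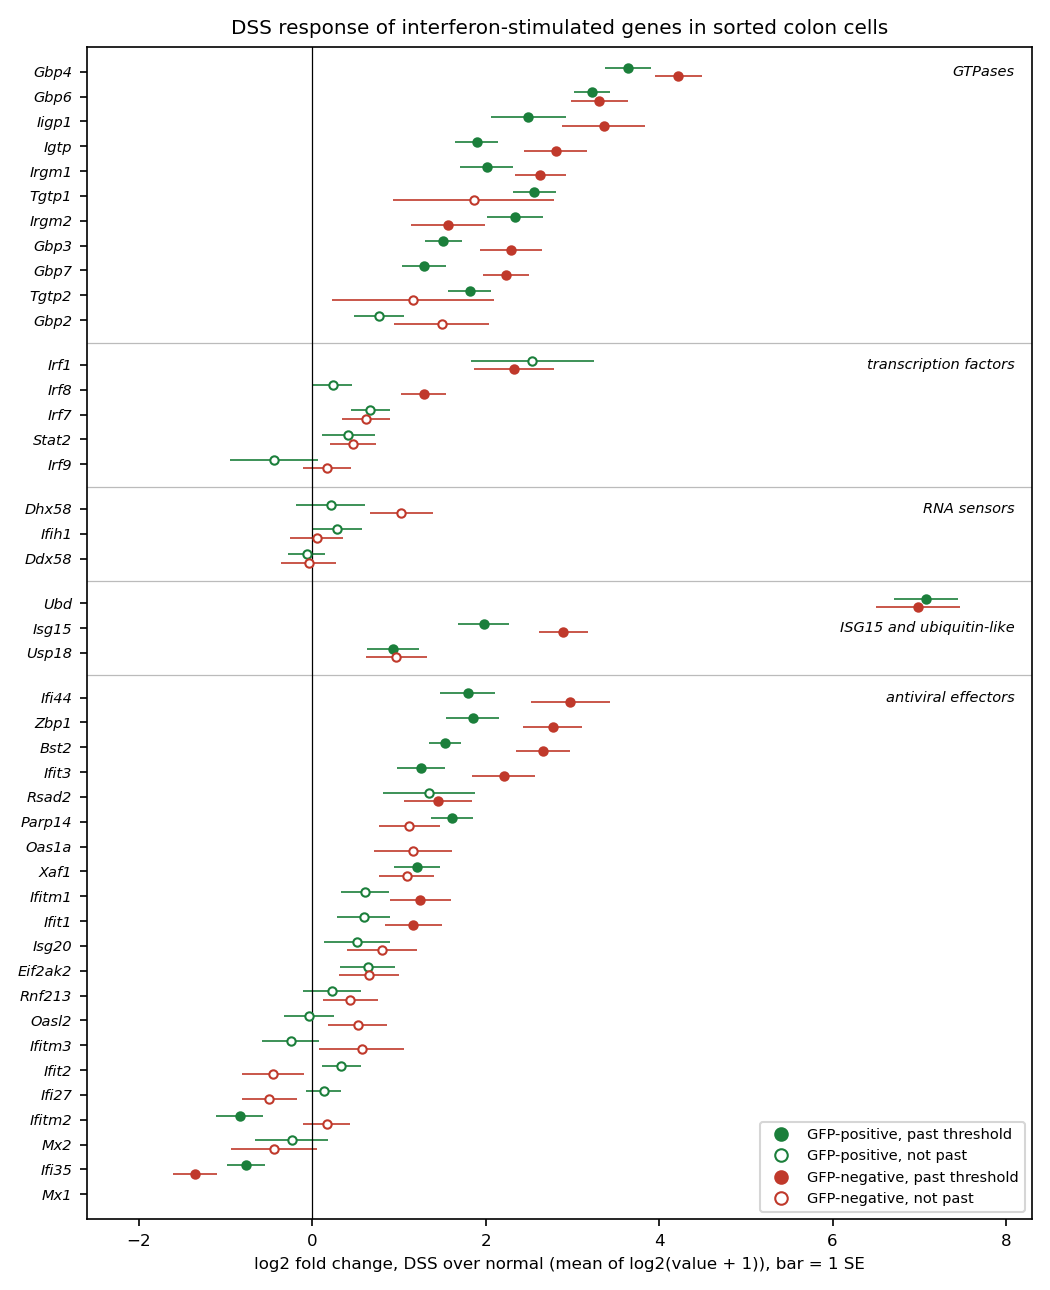
Log2 fold change of DSS over normal colon cells (horizontal axis) with its SE for each member, grouped by role, in GFP-positive and GFP-negative cells. Filled points passed the limma threshold, and Mx1 has no point because it was not tested. GTPases lie mostly to the right of 1 and Ubd lies near 7 in both.

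Of the transcription factors, 0 of 5 passed in GFP-positive cells by limma, 2 had an unadjusted p under 0.05 and 0 passed by the authors' deposited test. Over all genes the share with an unadjusted p under 0.05 was 34.5%. Irf1, which drives GTPase genes after interferon, measured 29028, 42223 and 22708 in DSS and 10679, 1744 and 7624 in normal libraries (log2 fold change 2.54, SE 0.71, limma adjusted p = 0.0576). The groups did not overlap, and the normal libraries spread over a wide range, with library 2 the lowest. Without normal GFP-positive library 2 the fold change was 1.75 (limma adjusted p = 0.00102), and without normal library 1 it was 3.05 (limma adjusted p = 0.0239). Irf7, the amplifier of type I interferon, had a fold change of 0.67 (limma adjusted p = 0.0536), or 0.87 without normal library 3 (limma adjusted p = 0.0175). Stat2 stood at 0.42, Irf8 at 0.23 and Irf9 at -0.44.

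GFP-negative cells had a response of similar breadth. Against a background of 10.3% of 13025 genes past the threshold (6.03% higher and 4.27% lower), 19 of the 42 tested genes were higher in DSS and 1 was lower, with a median log2 fold change of 1.17. By role, 8 of 11 GTPases, 2 of 5 transcription factors, 2 of 3 genes of the ISG15 group, 0 of 3 RNA sensors and 7 of 20 antiviral effectors were higher. The count depended on single libraries: without DSS GFP-negative library 2, 13 genes in either direction passed, as did 360 of all 13079 genes (2.75%). With totals made equal, 18 of the genes passed, and the split over all genes went from 785 higher of 1341 to 612 higher of 1388. In the authors' deposited table, Ubd, Gbp4 and Gbp6 had an FDR under 0.05, against 0.464% of all genes.

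Gbp4 in GFP-negative cells measured 518, 332 and 344 in DSS and 22, 20 and 18 in normal libraries, means of 398 ± 104 and 20 ± 2 with n = 3 each (± SD). The log2 fold change was 4.22 (SE 0.27, limma adjusted p = 4.93e-06). Iigp1 measured 4889, 4183 and 3955 against 160, 589 and 787 (3.36, SE 0.48, limma adjusted p = 0.00155). Gbp6 measured 928, 1013 and 813 against 57, 84 and 158 (3.31, SE 0.33, limma adjusted p = 0.000131). Each of these groups was fully apart from the other. Igtp (2.81), Irgm1 (2.63), Gbp3 (2.29), Gbp7 (2.23) and Irgm2 (1.57) were also higher, and Irgm2 lost its call without normal library 2 or without any single DSS library.

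Tgtp1, Tgtp2 and Gbp2 did not pass in GFP-negative cells. Tgtp1 measured 137, 85 and 115 in DSS and 6, 29 and 136 in normal libraries, and Tgtp2 327, 257 and 206 against 30, 85 and 590. Normal GFP-negative library 3 lay above 2 of the 3 DSS libraries for Tgtp1 and above all 3 for Tgtp2. It also held the highest sum of B and plasma cell markers, 3652 against 755 and 921 in the other normal GFP-negative libraries, and their part in these values was not tested. Log2 fold changes were 1.86 for Tgtp1 (limma adjusted p = 0.243), 1.16 for Tgtp2 (0.465 by the same measure) and 1.49 for Gbp2 (limma adjusted p = 0.109). Without that library they were 2.94 (limma adjusted p = 0.0044), 2.33 (limma adjusted p = 0.00383) and 1.91 (limma adjusted p = 0.044). The 11 GTPases summed to 527, 1243 and 2320 in normal and to 9165, 7430 and 7156 in DSS libraries.

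Ubd in GFP-negative cells measured 1, 0 and 2 in normal and 374, 203 and 159 in DSS libraries (limma adjusted p = 1.02e-05). It again reached the minimum for testing in DSS libraries alone, with higher the only direction open. The size of its change is imprecise, since the normal libraries summed to 3. The ratio of the sums was 245, with an exact 95% interval of 83.6 to 1192 when the values are taken as counts, which covers counting error only. Isg15 measured 67, 135 and 117 against 699, 816 and 784 (log2 fold change 2.89, SE 0.28, limma adjusted p = 0.0001). Usp18 stood at 0.97 (limma adjusted p = 0.0989), and at 1.29 without DSS library 1 (limma adjusted p = 0.0445).

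**Figure D3:**
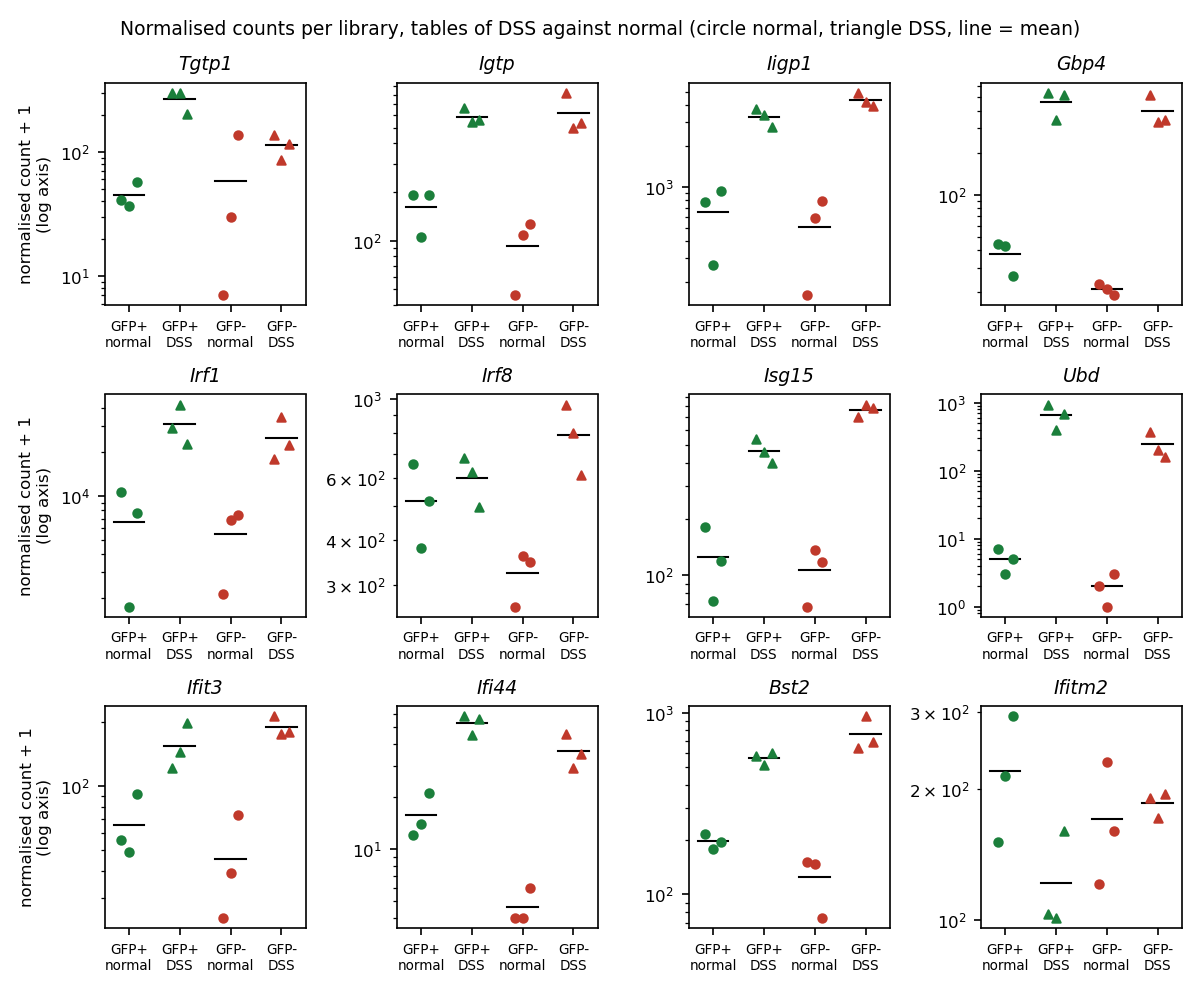
Normalised counts of 12 members in each library of sorted colon cells on a log axis of value + 1, normal and DSS, GFP-positive and GFP-negative. Points are libraries. Ubd moves from 6 or fewer in normal to 159 or more in DSS libraries, while Ifitm2 does not move upward in GFP-positive cells.

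Antiviral effectors of GFP-negative cells were led by Ifi44, at 45, 28 and 34 in DSS and 3, 3 and 5 in normal libraries (log2 fold change 2.98, limma adjusted p = 0.00198). Ifi44 reached the minimum for testing in DSS libraries alone, with higher the only direction open. Zbp1 measured 104, 84 and 71 against 13, 8 and 15 (2.77, limma adjusted p = 0.000476), and Bst2 636, 957 and 685 against 150, 147 and 73 (2.66, limma adjusted p = 0.000357). Ifit3, which stabilises the RNA-binding Ifit complex, measured 212, 174 and 179 against 23, 38 and 72 (2.21, limma adjusted p = 0.00308). In all of these genes the lowest DSS library exceeded the highest normal one. Rsad2 (1.45, limma adjusted p = 0.0373), Ifitm1 (1.25, limma adjusted p = 0.0422) and Ifit1 (1.17, limma adjusted p = 0.0433) passed more narrowly. Each of them lost its call without any single DSS library, Rsad2 and Ifit1 also without normal library 2, and Ifit1 also without normal library 3. Ifi35 was again lower, at 164, 146 and 195 against 328, 501 and 475 (-1.35, limma adjusted p = 0.00691), and missed the threshold without DSS library 2 (limma adjusted p = 0.0585). The other 12 tested antiviral effectors did not pass. Xaf1 (1.09, limma adjusted p = 0.0517) and Parp14 (1.12, limma adjusted p = 0.0654) passed only without normal library 3, as far as single libraries go, at 1.32 (limma adjusted p = 0.0327) and 1.39 (limma adjusted p = 0.0357). Values were 1.16 for Oas1a, 0.80 for Isg20, 0.65 for Eif2ak2, 0.57 for Ifitm3, 0.52 for Oasl2, 0.44 for Rnf213, 0.17 for Ifitm2, -0.44 for Mx2, -0.45 for Ifit2 and -0.50 for Ifi27. Mx1 was too low to test (9, 4 and 14 in DSS, 1, 5 and 3 in normal libraries). The antiviral sums of 2117, 4354 and 6427 in normal and 6729, 5844 and 6493 in DSS libraries overlapped. Without Ifitm3 (729, 2114 and 4082 in normal, 2881, 2469 and 2893 in DSS libraries) the other 20 effectors summed to 1388, 2240 and 2345 in normal and to 3848, 3375 and 3600 in DSS libraries, which did not overlap.

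Irf1 in GFP-negative cells measured 17925, 34652 and 22221 in DSS and 2139, 6834 and 7437 in normal libraries (log2 fold change 2.33, SE 0.46, limma adjusted p = 0.00896). Without DSS GFP-negative library 2 the limma adjusted p was 0.0622. Irf8, a factor of myeloid cells that interferon gamma also induces elsewhere, measured 963, 803 and 611 against 259, 361 and 347 (1.29, limma adjusted p = 0.0103). For both factors the groups were apart, and Irf8 missed the threshold without DSS library 2 (limma adjusted p = 0.0676). Irf7 stood at 0.62, Stat2 at 0.47 and Irf9 at 0.17, none past the threshold. The sensors Dhx58 (1.03, limma adjusted p = 0.094), Ifih1 (0.05) and Ddx58 (-0.04) did not pass. Of the 3, 1 had an unadjusted p under 0.05, against 27.2% of all genes, and 0 passed by the authors' deposited test.

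Of the 41 genes tested in both populations, 14 were higher in DSS in both: Gbp3, Gbp4, Gbp6, Gbp7, Igtp, Iigp1, Irgm1, Irgm2, Isg15, Ubd, Bst2, Ifi44, Ifit3 and Zbp1. For Ubd in both populations and Ifi44 in GFP-negative cells, higher was the only direction open. Over all 12419 genes tested in both, 451 (3.63%) were higher in both, 295 (2.38%) lower in both, 835 (6.72%) higher in GFP-positive cells alone and 295 (2.38%) higher in GFP-negative cells alone. GTPases gave 8 of the 14 genes, out of 11 tested in both, and antiviral effectors gave 4, out of 19. Ifi35 was lower in both. Higher and past the threshold in GFP-positive cells alone were 5 genes (Tgtp1, Tgtp2, Usp18, Parp14 and Xaf1), and in GFP-negative cells alone 5 (Irf1, Irf8, Rsad2, Ifitm1 and Ifit1). Ifitm2 was lower in GFP-positive cells alone, and 15 genes passed in neither. Passing in 1 population alone is not a tested difference. These populations come from different libraries and have no controls in common, although libraries with the same number may be related.

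The difference between the DSS responses was tested directly, as an interaction over both populations, and limma called 0 of 42 genes. Over all genes it called 7 of 13488 (0.0519%), with 1081 at an unadjusted p under 0.05. For 6 of the interferon-stimulated genes the unadjusted p was under 0.05, all with a negative difference, that is a lower log2 fold change in GFP-positive than in GFP-negative cells: Bst2 (difference in log2 fold change -1.13, unadjusted p = 0.00745 by limma, adjusted p = 0.477), Ifi44 (-1.18), Irf8 (-1.05), Ifitm2 (-1.0), Gbp7 (-0.95) and Isg15 (-0.92). In the separate comparisons the fold changes of Ifitm2 were -0.84 and 0.17, and those of the other 5 genes were above 0 in both. None of these is called a difference, and over all genes 8.01% had an unadjusted p under 0.05. For other genes the test was too imprecise to show small differences: the value was 0.21 (SE 0.87) for Irf1, -0.87 (SE 0.75) for Iigp1 and 0.70 (SE 1.07) for Tgtp1.

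Marker genes of other cells moved with the DSS comparisons. Myeloid markers summed to 137, 110 and 211 in normal and 577, 328 and 282 in DSS GFP-positive libraries, and 4 of 9 measured markers were higher (S100a9, S100a8, C1qa and Itgam), S100a9 being at 0 in all 3 normal libraries. S100a9 was thus tested through DSS libraries alone, with higher the only direction open. In GFP-negative cells the myeloid sums were 138, 127 and 198 in normal and 436, 561 and 637 in DSS libraries, with S100a8 and S100a9 higher. General leukocyte markers summed to 24 to 25 in normal and 44 to 214 in DSS GFP-positive libraries, where Laptm5 was higher, and to 83 to 263 and 73 to 182 in GFP-negative libraries, where limma called 0 of 2 tested. Mesenchymal markers were lower in DSS for 5 of 8 genes in GFP-positive cells (Col1a1, Col3a1, Col1a2, Lum and Vim) and for Vim in GFP-negative cells. Pericyte markers were higher in DSS for 3 of 3 genes in GFP-positive cells (Rgs5, Kcnj8 and Abcc9), with sums of 323, 325 and 502 in normal and 2129, 2067 and 1701 in DSS libraries. In GFP-negative cells they were higher for 2 of 3 (Kcnj8 and Abcc9), with sums of 244, 586 and 493 in normal and 780, 875 and 1408 in DSS libraries. Uchl1, a marker of glia and neurons, was higher in GFP-negative cells as 1 of 3. In GFP-positive cells limma called 0 of 2 markers of glia and neurons and 0 of 4 of endothelium. It called 0 of 4 of epithelium and 0 of 2 of B and plasma cells there. At an unadjusted p under 0.05 these lists held 0, 1, 0 and 0, against 34.5% of all genes. In GFP-negative cells limma called 0 of 4 markers of endothelium, 0 of 7 of epithelium and 0 of 2 of B and plasma cells. Of these, 2, 2 and 1 had an unadjusted p under 0.05, against 27.2% of all genes. The part of these shifts in the interferon-stimulated genes was not tested.

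Genes around the pathway were read in the same comparisons. Ifngr1, the ligand-binding chain of the type II receptor, was higher in both (log2 fold changes of 1.0 and 1.15), and Il10rb (0.75) in GFP-positive cells, as 2 of 5 and 1 of 5 measured receptors. Socs3, a brake on cytokine signalling, was lower in both (-1.31 and -1.70), and Ptpn2 was higher in GFP-negative cells (1.14), so that 0 of 5 negative regulators were higher and 1 lower in GFP-positive and 1 and 1 of 5 in GFP-negative cells. In nucleic acid sensing, Tmem173 (STING, 1.44 and 1.57) and Tlr3 (0.97 and 1.23) were higher in both and Ikbke (1.12) in GFP-positive cells, as 3 of 10 and 2 of 10. With so few genes a list, nothing is read from these counts against the 10.2% and 6.03% of all genes that were higher.

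None of the 9 interferon ligand genes listed has values in the DSS comparisons, and 2 have values against unsorted cells, given here after they were seen. Ifnb1, a type I interferon, was listed at 59, 4 and 15 in unsorted, 0, 0 and 0 in GFP-positive and 1, 0 and 0 in GFP-negative libraries of the normal colon, and was lower in both (limma adjusted p = 0.011 and 0.0226). Ifng, the type II interferon, was listed at 63, 15 and 34 in unsorted, 2, 1 and 0 in GFP-positive and 1, 0 and 0 in GFP-negative libraries of the DSS colon, and was lower in both (limma adjusted p = 0.000151 and 9.31e-05). In the small intestine Ifng was listed at 21 and 30 in unsorted libraries and at 0 in all libraries of high and low GFP, where it was lower (limma adjusted p = 0.0035 and 0.00163). GFP-negative libraries there held 25, 0 and 0 (limma adjusted p = 0.232). In each of these comparisons the sorted mean was under the minimum required for testing, which the gene reached in unsorted libraries alone. A lower mean in sorted cells was thus the only direction open. These p-values are therefore not read as evidence of a direction.

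Interferon-responsive genes beyond the chosen set were read from a second list. In GFP-positive cells 16 of 34 tested were higher, against 10.2% of all genes, and 1 was lower, with a median log2 fold change of 0.73. In GFP-negative cells 16 of 36 were higher, against 6.03% of all genes, and 0 lower, with a median of 1.15. Up to 6 higher genes are named for each population, those with the largest fold changes. A value given for 1 population alone therefore does not mean that the gene was unchanged in the other. The chemokine gene Cxcl9, which draws T cells, was higher by 4.56 and 4.37 on the log2 scale, and Cxcl10 by 2.51 in GFP-positive cells. Further guanylate-binding genes were Gbp5 (4.38 and 6.12), Gbp10 (3.66 and 3.08), Gbp11 (3.52 in GFP-positive cells) and Gbp9 (2.47 in GFP-negative cells). Serpina3g (2.49 and 3.01) and Ifi47 (2.83 in GFP-negative cells) followed. Ddx60, a helicase that aids RNA sensing, was the one lower gene, in GFP-positive cells (-2.33).

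Within the normal colon, limma called 0 of 40 genes between GFP-positive and GFP-negative cells, against 5.98% of all genes. Of the 40, 9 had an unadjusted p under 0.05, against 17.3% of all genes, and 0 passed by the authors' deposited test (0.563% of all genes). Groups did not overlap for 10 genes, 8 with GFP-positive cells above and 2 below. The share of all genes without overlap was not counted, so nothing is read from this split. Ifi44 measured 13, 16 and 24 in GFP-positive and 3, 3 and 6 in GFP-negative libraries (log2 fold change 1.91, limma adjusted p = 0.0687). Ifit2, an RNA-binding antiviral protein, measured 92, 77 and 114 against 53, 42 and 46 (0.98, limma adjusted p = 0.0699). GTPases had a median of 0.63, against 0.003 over all genes.

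In the DSS colon, 7 of 42 genes differed between the sorted populations, a share close to the 17.1% of all genes (8.22% higher and 8.9% lower in GFP-positive cells). Ifit2 measured 91, 77 and 87 in GFP-positive and 31, 15 and 33 in GFP-negative libraries (log2 fold change 1.73, SE 0.29, limma adjusted p = 0.000722). Tgtp1 measured 254, 251 and 171 against 117, 72 and 98 (1.23, limma adjusted p = 0.00138), and Ubd 805, 341 and 578 against 318, 172 and 136 (1.47, limma adjusted p = 0.0135). For all 3 genes the lowest GFP-positive library lay above the highest GFP-negative one. Ifi27 (1.01) and Gbp6 (0.59) were also higher in GFP-positive cells. Ubd missed the threshold without GFP-negative library 3 (limma adjusted p = 0.0548), and Gbp6 without GFP-positive library 1 or 2 or GFP-negative library 2 or 3.

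Isg15 and Isg20 went the other way in the DSS colon. Isg15 measured 459, 386 and 337 in GFP-positive and 596, 693 and 667 in GFP-negative libraries (log2 fold change -0.73, limma adjusted p = 0.0101). Isg20, an exonuclease that degrades viral RNA, measured 22, 12 and 14 against 62, 29 and 33 (-1.28, limma adjusted p = 0.0214). Isg15 missed the threshold without GFP-positive library 3 (limma adjusted p = 0.0574), and Isg20 without GFP-positive library 2 or 3 or GFP-negative library 1. By the authors' deposited FDR 0 of the genes passed, against 1.93% of all genes. Markers of other cells differed in the same contrast. Pericyte markers were higher in GFP-positive cells for 3 of 3 genes, with sums of 1821, 1760 and 1453 against 665, 742 and 1199. Lower in GFP-positive cells were 4 of 7 epithelial markers (sums of 82 to 105 against 173 to 567), 2 of 2 of B and plasma cells (23 to 121 against 197 to 565), 2 of 3 of glia and neurons, 1 of 2 of endothelium and 1 of 9 myeloid markers. Of 8 mesenchymal markers, Pdgfra was higher and 5 were lower, with sums of 27574 to 30997 against 61206 to 81669. The part of these markers in the 7 differences was not tested.

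**Figure D4:**
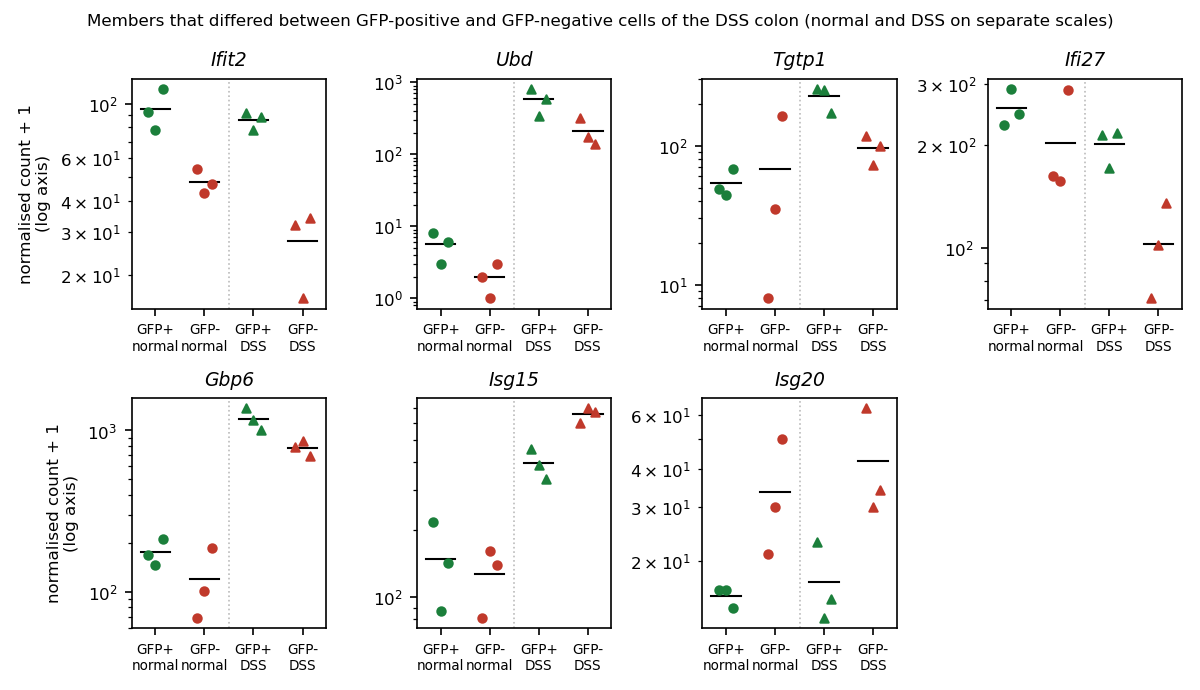
Normalised counts (log axis of value + 1) of the 7 members that differed between sorted cells in DSS, shown per library in the normal and DSS colon, each on its own scale. With DSS, Isg15 and Isg20 are lower and the other 5 members higher in GFP-positive cells.

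In the small intestine limma called 0 of 41 genes in each contrast of sorted cells. For high GFP against GFP-negative cells 0.894% of all genes passed, and 3 of the 41 had an unadjusted p under 0.05, against 1311 of all 12412 (10.6%). For low GFP against GFP-negative cells 0.675% of all genes passed, with 13 of 41 against 2100 of 12445 (16.9%) at an unadjusted p under 0.05. For high against low GFP 0.384% passed, with 2 of 41 against 942 of 12226 (7.7%). The authors' deposited test passed 0 of these genes in each, and 0.469%, 0.313% and 0.133% of all genes. The 13 genes included Tgtp2, at 159, 154 and 146 in low GFP and 69, 11 and 34 in GFP-negative libraries (log2 fold change 2.32, limma adjusted p = 0.0891). Ifitm1, an entry inhibitor at the cell surface, measured 927, 892 and 994 against 382, 496 and 348 (1.21, limma adjusted p = 0.0644). Both genes separated these groups, and neither passed. Irf1 went in the other direction, at 818, 716 and 621 against 2562, 1008 and 1636 (-1.18, limma adjusted p = 0.126).

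Sorted cells were also set against unsorted cells of the same tissue, which hold other cell types. In the normal colon, GFP-positive cells had 1 higher and 5 lower of 42 genes (21.8% of all genes passed, 7.72% higher and 14.1% lower), and GFP-negative cells 0 higher and 10 lower of 42 (18.8%, 5.81% higher and 13% lower). The shares lower were 5 and 10 of 42 beside 14.1% and 13% of all genes. Isg20 measured 15, 15 and 13 in GFP-positive and 74, 249 and 169 in unsorted libraries (log2 fold change -3.27, limma adjusted p = 0.000615). Oas1a (-2.94), an RNA-activated synthetase, Mx1 (-2.23), Ifit1 (-2.04) and Rsad2 (-1.90) were lower too, and Ifit2 was higher (1.13). The GFP-negative calls were Ifi44 (-2.87), Rsad2 (-2.38), Isg20 (-2.22), Gbp4 (-1.98), Oas1a (-1.96), Ifit1 (-1.85), Ifit3 (-1.63), Isg15 (-1.49), Irgm1 (-1.28) and Ifi27 (-1.20). Some of these genes, such as Oas1a in GFP-positive and Ifi44 in GFP-negative cells, reached the minimum for testing in unsorted libraries alone. Lower was then the only direction open, and such calls are not read as evidence of a direction. Myeloid markers summed to 3267 to 6869 in unsorted and 130 to 252 in sorted libraries, and epithelial markers to 2041 to 13960 and 42 to 450. The GFP-positive count became 10 without unsorted library 1, when 28.3% of all genes passed. The GFP-negative count became 5 or 6 without GFP-negative library 1 or 2 or unsorted library 2 or 3. Of all genes, 12.5%, 10.6%, 11.8% and 11.6% then passed. The part of these markers in the differences was not tested. By the authors' deposited FDR, Isg20 alone passed for GFP-positive cells (6.73% of all genes) and Rsad2 alone for GFP-negative cells (6.74%).

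In the DSS colon, 5 genes were higher and 10 lower of 43 in GFP-positive against unsorted cells (37.1% of all genes passed, 15.8% higher and 21.3% lower). Irf1 measured 24821, 35938 and 19394 in GFP-positive and 11243, 10024 and 11869 in unsorted libraries (log2 fold change 1.23, limma adjusted p = 0.00254), without overlap. Gbp6 (1.23), Usp18 (0.99), Ifi44 (0.81) and Irgm2 (0.63) were higher as well. Mx1 was listed at 0 in all 3 GFP-positive libraries and at 27, 3 and 12 in the unsorted ones. Oas1a (-2.49), Gbp2 (-1.82), Isg15 (-1.55), Rsad2 (-1.53), Dhx58 (-1.32), Oasl2 (-1.25), Ifit1 (-1.03), Irf8 (-0.93) and Irf7 (-0.70) were lower too. Mx1 and Oas1a reached the minimum for testing in unsorted libraries alone here. Lower was thus the only direction open to them, and their calls are not read as evidence of a direction. GFP-negative cells had 2 higher (Iigp1 at 0.94 and Irf1 at 0.89) and 6 lower of 43 (33% of all genes passed, 13.7% higher and 19.3% lower): Rsad2 (-1.88), Gbp2 (-1.73), Ifit2 (-1.39), Oas1a (-1.29), Tgtp1 (-1.15) and Isg15 (-0.82). The 8 calls of GFP-negative cells became 2 without GFP-negative library 2 (24.2% of all genes passed). They became 5 without GFP-negative library 3 (25.6%) or unsorted library 3 (31.3%). The 15 of GFP-positive cells became 8 without GFP-positive library 2 (28.7%). With totals made equal, the split over all genes for GFP-negative against unsorted cells went from 1871 higher of 4509 to 1378 higher of 4530. The median shifted by -0.169. Myeloid markers summed to 11100 to 17303 in unsorted and 241 to 543 in sorted DSS libraries. Their part was not tested. By the authors' deposited FDR, Mx1, Gbp2, Isg15 and Oas1a passed for GFP-positive cells (10.8% of all genes), and Gbp2 and Rsad2 for GFP-negative cells (9.69%).

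Against unsorted cells of the small intestine, which had 2 libraries, high GFP cells had 3 higher and 2 lower of 41 genes (17.2% of all genes passed, 6.13% higher and 11.1% lower). Low GFP cells had 8 and 3 (22.8%, 9.13% higher and 13.7% lower), and GFP-negative cells 3 and 0 (11.5%, 4.58% higher and 6.96% lower). Ifitm1 was higher in all 3 (1.66, 2.49 and 1.28), as were Ifitm2 (1.85, 1.62 and 2.00) and Iigp1 (1.12, 1.45 and 1.56). These contrasts share the same unsorted libraries. Irf1 was lower in high GFP cells, at 933, 747 and 927 against 2844 and 2687 (-1.68), and in low GFP cells (-1.95), and Gbp4 was lower in both (-1.39 and -1.55). Gbp2 (2.22), Ifitm3 (1.89), Ifih1 (1.85), Irgm2 (1.47) and Tgtp2 (1.28) were higher and Isg15 (-1.13) lower in low GFP cells only among these calls. These counts rest on the 2 unsorted libraries, and leaving either out leaves 1, so such fits cannot show which calls hold. The high GFP count became 3 and 2 without high GFP library 1 or 3, when 15.1% and 11.5% of all genes passed. That of low GFP cells became 6 without low GFP library 3 (17% of all genes). That of GFP-negative cells became 0 without GFP-negative library 1 or 2 (7.49% and 9.18%). Myeloid markers summed to 5195 to 5623 in unsorted and 71 to 406 in sorted libraries, and their part was not tested. By the authors' deposited FDR 0 of the genes passed in these contrasts, against 5.27%, 6.32% and 3.56% of all genes.

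**Figure D5:**
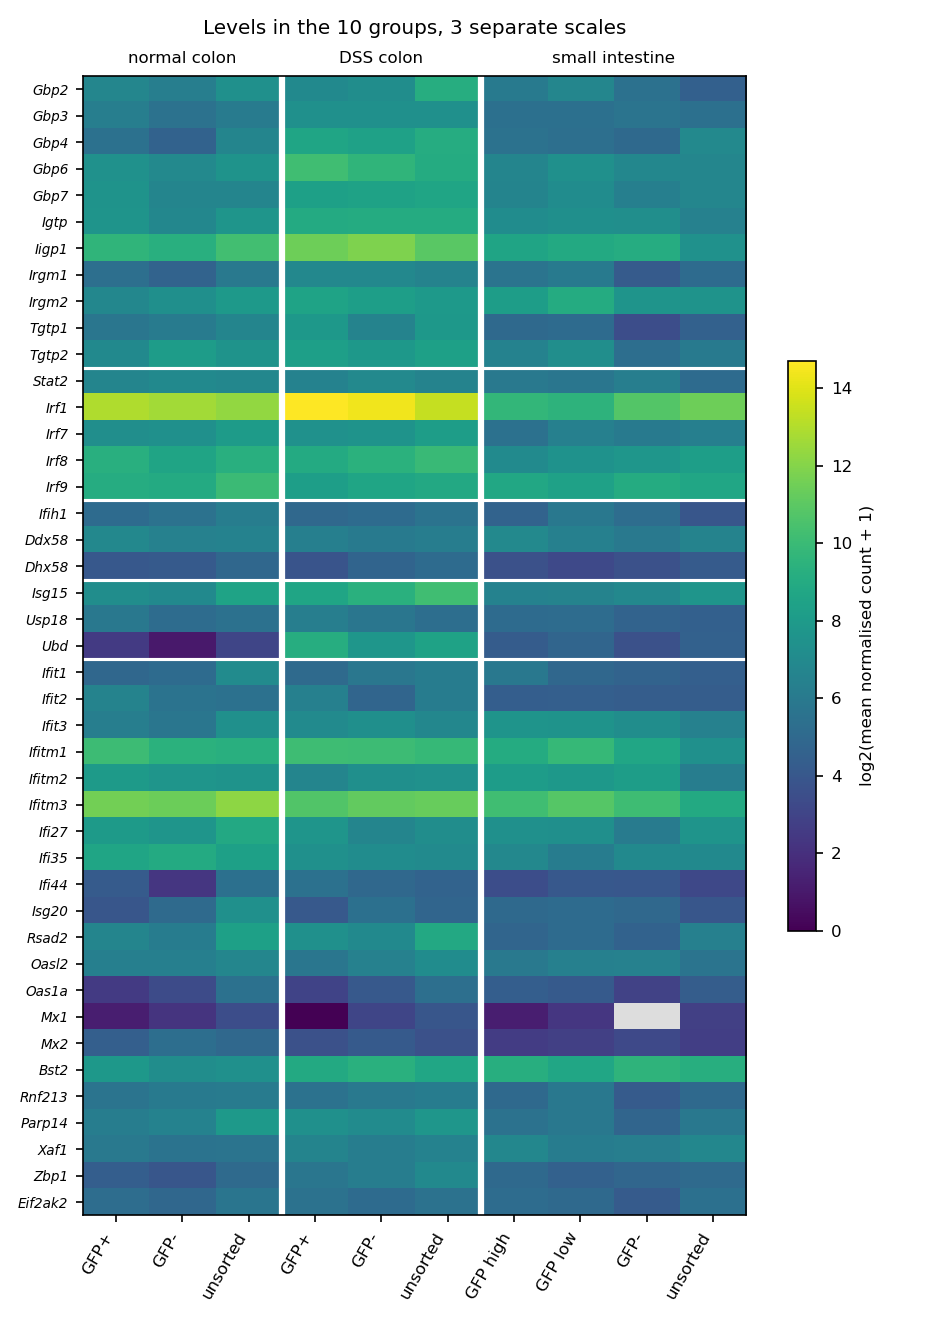
Heat map of log2(mean normalised count + 1) for the 43 members (rows, by role) in the 10 groups (columns), with each tissue state on its own scale. Grey marks Mx1 where no value is used. Ubd has its highest means in the 3 DSS colon groups.

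Levels across the 10 groups were read within each scale. Irf1 in the normal colon measured 12769, 2079 and 9056 in GFP-positive, 2543, 8098 and 8832 in GFP-negative and 4043, 5600 and 5798 in unsorted libraries, so the 3 groups overlapped. In the DSS colon its GFP-positive (24821, 35938 and 19394) and GFP-negative libraries (15269, 29403 and 18910) overlapped each other, and both lay above the unsorted ones. In the small intestine the order of the means was unsorted, GFP-negative, high GFP and low GFP, with overlap between high and low GFP.

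Iigp1 measured 924, 319 and 1104 in GFP-positive, 190, 698 and 935 in GFP-negative and 1084, 1301 and 1337 in unsorted libraries of the normal colon, again with overlap. In the DSS colon it measured 3194, 2857 and 2339, then 4165, 3549 and 3366, then 2730, 1763 and 1454 in the same order of groups. GFP-negative libraries were above both others there, and the difference between the sorted groups was not past the threshold. In the small intestine the sorted libraries held 321 to 831 and the unsorted ones 149 and 203.

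Ubd was low outside the DSS colon. It measured 7, 2 and 5 in GFP-positive, 1, 0 and 2 in GFP-negative and 14, 3 and 5 in unsorted libraries of the normal colon, and 0 to 42 in the small intestine. In the DSS colon the unsorted libraries held 422, 243 and 415, between those of the sorted groups in mean. Ifitm3, by comparison, was abundant in every group, from 432 in the lowest unsorted library of the small intestine to 7001 in the highest unsorted library of the normal colon.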

How the data were processed

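RNA of intestinal mesenchymal cells was sequenced at its 3' ends (QuantSeq, Ion Proton), so counts need no correction for gene length. Per the submitters' processing notes, TopHat2, Bowtie2, mm10 and DESeq were used; the sources used here give no versions, annotation or counting program. The deposited scores are normalised read counts per the file headers, which the authors rounded to whole numbers, in 14 tables of pairs of groups. The authors also deposited p-values with FDR and log2 fold changes. The tables could not be tested as raw counts, so log2(value + 1) was tested with limma 3.58.1 in R 4.3.3 (trend and robust variance) among genes whose mean reached 10 in 1 group, with Benjamini-Hochberg adjustment. A gene that reached this mean in 1 group alone could in effect be called only as higher in that group.

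Ratios of a library's values between tables (0.837 to 0.845 in normal, 1.17 to 1.18 in DSS libraries) showed a common scale of the DSS tables. No library is in both tables, so a shared scale of both populations is an inference. Depth was estimated from the spacing of values. On 40 simulated libraries 39 estimates were within 2% of the truth, and the estimate is less certain near 1 count per read, as in normal sorted colon cells.

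On data simulated for the DSS comparison of GFP-positive cells (12671 genes), the test recovered 85% of 2-fold and 100% of 4-fold changes, and 5.61% of its calls were false. The simulation gave all genes the same spread beyond counting error, changed few genes, none of them low, and held no shifts between libraries. These shares therefore need not hold for the data. Members, pathway lists and markers were chosen with earlier results of these data known. All 43 genes could be named, and pathway genes were named if they passed in a DSS comparison, up to 6 in each direction per list and population. The signal transduction list is not reported here. Promoters come from RefSeq (GRCm38.p6). Alternatives were pseudocount 5, no filter, equal totals, no trend or robust variance, a replicate block, the authors' test and leaving out each library. Python 3.11.15 was used for summaries.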

Additional observations from a re-analysis of the deposited data

How the results depend on the processing

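No called gene among the 43 reversed its direction under the alternatives run. The authors' deposited test passed fewer genes: 2 of them for DSS in GFP-positive and 3 in GFP-negative cells, 0 for GFP-positive against GFP-negative cells of the DSS colon, 1 and 1 for GFP-positive and GFP-negative against unsorted normal colon cells, 4 and 2 for the same contrasts in the DSS colon, and 0, 0 and 0 for high GFP, low GFP and GFP-negative against unsorted cells of the small intestine. Without trend and robust variance, 1 gene passed between sorted cells of the normal colon, 5 for GFP-negative against unsorted DSS cells, and 2, 5 and 0 for the contrasts of the small intestine with unsorted cells. The cause was not tested.

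With 1 library left out, the counts ran from 18 to 22 for DSS in GFP-positive and 13 to 24 in GFP-negative cells, 0 to 0 for the difference of the responses, for sorted cells of the normal colon and for the 3 contrasts of sorted cells of the small intestine, and 5 to 8 for sorted cells of the DSS colon. Against unsorted cells of the normal colon they ran from 4 to 10 and 5 to 9 (GFP-positive, then GFP-negative). In the DSS colon the same contrasts ran from 8 to 15 and 2 to 7. In the small intestine, with a sorted library left out, they ran from 2 to 4, 6 to 9 and 0 to 2 (high GFP, low GFP, GFP-negative). Over single genes, leaving out a library left 1180 results on the same side of the threshold, 181 weaker and 10 stronger. These results include fits with 1 unsorted library of the small intestine. Genes not called in the fit as designed were followed only for the DSS responses and their difference. Calls gained in other comparisons are not counted, so the numbers weaker and stronger cannot be set against each other.

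Libraries share replicate numbers, but nothing says that a number marks a mouse. Correlations of deviations were taken over 57 same-numbered pairs, some of them the same libraries repeated in another comparison. They ran from -0.297 to 0.363, 20 were over 0.1, and in 25 the best match had the same number. For GFP-negative against unsorted DSS cells (0.363, 0.0447 and 0.288) each library matched its own number best. The same held for high against low GFP cells and, in the fit of the difference, for normal against DSS GFP-negative cells. With the replicate number as a block, 21 genes passed for DSS in GFP-positive and 22 in GFP-negative cells. For GFP-negative against unsorted DSS cells 15 passed, against 8 without the block. For GFP-negative against unsorted cells of the small intestine 0 passed with the block. Depth limits Oas1a, Mx1 and the normal levels of Ubd and Ifi44, which rest on few reads.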
